A study of Mus musculus with 6 samples.

Results

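Autophagy genes encode the proteins that build the autophagosome, the membrane vesicle that encloses cytoplasm and delivers it to the lysosome for breakdown. The set comprised 35 genes chosen by name, and all 35 were found among the 49671 genes of the deposited tables, each once. It holds the Ulk1 kinase complex that starts the process, the Vps34 lipid kinase complex, the membrane and lipid-binding proteins, the conjugation enzymes, the Atg4 proteases, the ubiquitin-like Atg8 family that is attached to the membrane, the cargo receptors, and the transcription factor Tfeb. In muscle stem cells (MuSCs), autophagy is known to be needed to maintain quiescent cells and to rise when they are activated.

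RNA-Seq was performed on MuSCs sorted by FACS from the tibialis anterior (TA) muscles of 6 female C57BL/6 mice aged 4 to 6 months. All mice received 50 μL of 1.2% BaCl2, which injures myofibers, into each TA. The 3 treated mice were given resolvin D1 (RvD1), a lipid mediator made from docosahexaenoic acid, at 100 ng by daily IP injection, and the 3 control mice were given vehicle (0.1% ethanol). Cells were collected at day 3 as β1-integrin+, CXCR4+ and negative for CD45, CD11b, Sca-1, and Ter119, and both TA muscles of a mouse were pooled into 1 library. No genetic change distinguished the groups, and uninjured MuSCs were not analysed here. The comparison asks whether RvD1 given to the animal altered autophagy transcripts in its MuSCs.

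Libraries held 16148026 to 28149176 expected counts. The 10 MuSC markers summed to 3460.1 to 4266 TPM (transcript level scaled for length and library total) with RvD1 and 3231 to 3586 with vehicle, and Pax7, Myf5, Myod1, and Myog were present in every library. Of 18 leukocyte markers, 15 had a lower mean with RvD1 (summed level 50.6 to 72.3 TPM, against 64.4 to 108 with vehicle). The count filter left 15 of the 18 for testing. Lyz2, Tyrobp, and C1qb, all lower, had an unadjusted p under 0.05 in edgeR, as did 3.47% of all genes tested. Counts per library were 235 to 909 for Lyz2, 12 to 31 for Tyrobp, and 37 to 77 for C1qb. The 6 endothelial markers summed to 4.48 to 9.52 TPM with RvD1 and 3.71 to 11.97 TPM with vehicle. In CPM (counts scaled to the library total with TMM factors), 5 of the 6 had a negative log2 fold change, from -1.74 (Kdr) to -0.92 (Vwf), none with an unadjusted p under 0.05 in edgeR, and Tek, at 0.17, had the highest level. None of the defining markers Ptprc, Pecam1, and Pdgfra was at 0 in any library. The 5 fibro-adipogenic markers summed to 324 to 879.7 TPM with RvD1 and 379.6 to 448 with vehicle, the highest value being that of RvD1 replicate 1. In CPM, 4 of the 5 had a positive log2 fold change, and Ly6a, which encodes the Sca-1 used to exclude cells in the sort, had one of -0.62 without overlap between the groups (unadjusted p = 0.0141 in edgeR). In sorted cells analysed in bulk, fewer cells of a type and less RNA per cell cannot be told apart.

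The members of the Atg8 family share a C-terminal glycine, which the Atg4 proteases expose and which is then joined to phosphatidylethanolamine in the membrane. The last 60 coding bases of each transcript are shown because they hold that glycine codon and the codons after it, whose residues Atg4 removes. They were read 5′ to 3′ from GENCODE transcripts on GRCm38, with the glycine codon in capitals and the stop codon at the end.
Map1lc3a: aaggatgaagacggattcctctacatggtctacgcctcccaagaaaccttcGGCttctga
Map1lc3b: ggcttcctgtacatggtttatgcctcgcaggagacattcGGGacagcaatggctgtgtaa
Gabarap: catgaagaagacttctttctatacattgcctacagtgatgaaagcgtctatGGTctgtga
Gabarapl1: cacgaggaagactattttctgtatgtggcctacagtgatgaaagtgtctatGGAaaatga
Gabarapl2: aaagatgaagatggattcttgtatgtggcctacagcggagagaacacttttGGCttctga
Map1lc3b carried 5 codons between the glycine codon and the stop codon, and the other 4 genes carried 1. The glycine codon was codon 120 in Map1lc3a and Map1lc3b and codon 116 in Gabarap, Gabarapl1, and Gabarapl2. Identity of the coding sequences was 75.1% between Map1lc3a and Map1lc3b, 64.6 to 74.9% among the Gabarap genes, and 53.8 to 59.5% between these subfamilies. The genes lie apart in the genome, Map1lc3a at chr2:155276297-155278073 (+), Map1lc3b at chr8:121590361-121598760 (+), Gabarap at chr11:69991143-69994951 (+), Gabarapl1 at chr6:129533160-129542346 (+), and Gabarapl2 at chr8:111940703-111953612 (+).

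All 35 members passed the count filter, with mean counts from 98.5 (Tfeb) to 18294 (Sqstm1) and no library below 56 counts for any member. Members together made up 0.225 to 0.312% of the TPM of a library. Sqstm1, the receptor p62 that carries ubiquitinated cargo into autophagosomes, had the highest level, and its mean over the 6 libraries was 4.28 times that of the next member. Sqstm1 alone accounted for 41.0% of the summed level of the members, and with the Atg8 family for 68.1%. By mean TPM, 5 members exceeded 100, 10 exceeded 50, and 4 were at 10 or less. The 4 were Ambra1, Atg4c, Optn, and Tfeb. The plot of levels by library shows this range.

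**Figure D1:**
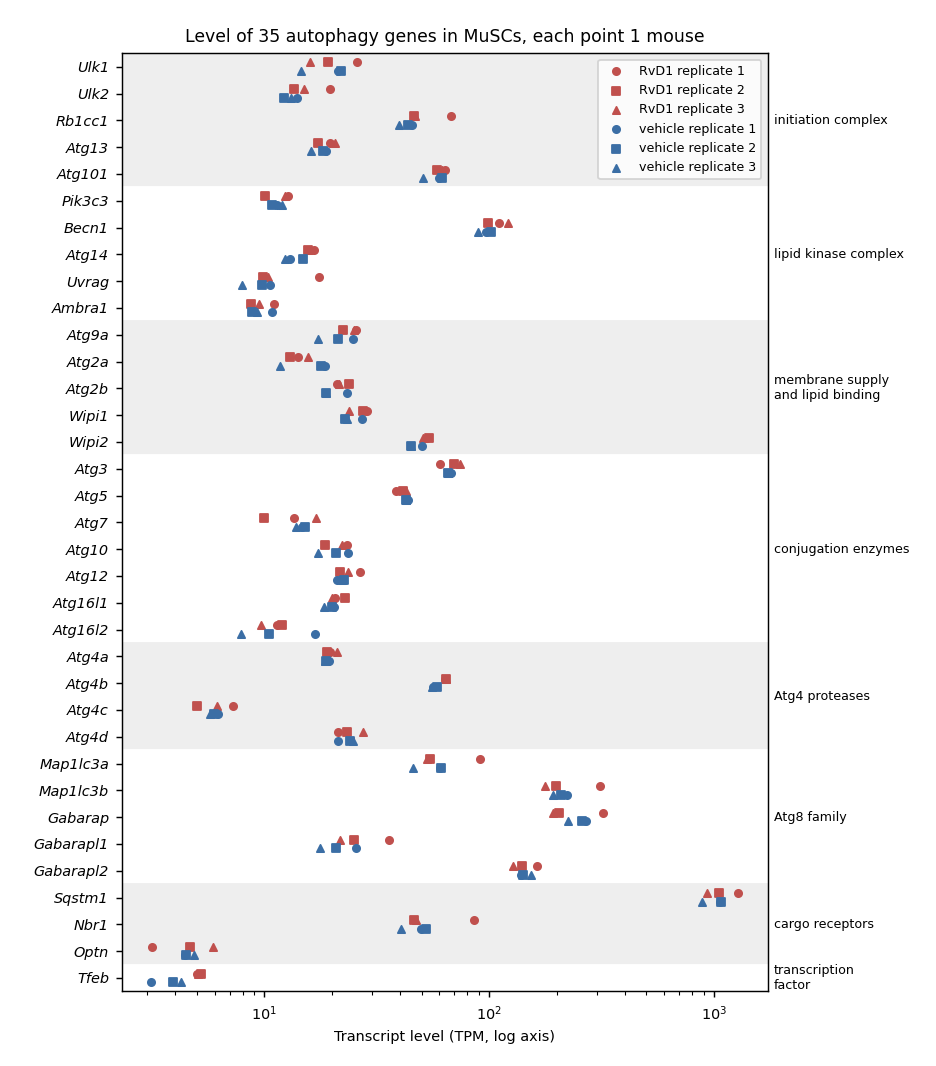
Level of each of the 35 autophagy genes (TPM, log axis) in each of the 6 libraries, grouped by role, with RvD1 in red, vehicle in blue, and 1 marker shape for each replicate number. Sqstm1 lies between 883 and 1279.9 TPM, while Tfeb and Optn lie below 6 TPM in every library.

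No member passed an adjusted p of 0.05 in edgeR's quasi-likelihood test. The smallest adjusted p was 0.971, and over all 14494 genes tested 0 were called (0%), with 0 members called by DESeq2 or limma-voom as well. No member had an unadjusted p under 0.05 either, where 503 of all genes did (3.47%, made up of 1.83% higher and 1.64% lower with RvD1). Of the 35 members, 22 had a higher and 13 a lower estimate with RvD1, with a median log2 fold change of 0.027, beside 0.014 and 53.5% higher over all genes tested. On the TPM scale, where the median of all genes was itself shifted to 0.077, 28 members were higher and the median of the members was 0.10. The sign of the estimate changed for 27 of the 35 members when 1 library was left out. Log2 fold changes ranged from -0.16 (Atg5) to 0.45 (Tfeb).

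The test bounded the size of the differences. The 95% interval of the log2 fold change lay within 1 (2-fold) in either direction for all 35 members, against 76.3% of all genes tested, and within 0.5 for 27 members, against 48.1%. The median distance from the estimate to the end of its interval was 0.29 for members and 0.38 for all genes. The highest upper bounds were 0.95 for Tfeb and 0.73 for Gabarapl1, and the lowest lower bound was -0.64 for Optn. Across the 6 libraries the coefficient of variation of CPM ran from 3.21% for Becn1 to 22.8% for Map1lc3a, with a median of 9.10% for members and 14.1% for all genes. These comparisons with all genes were not matched for level. No member had a mean count below 98.5, whereas the genes tested included some with far fewer, such as Itgam (mean 13.7 counts, coefficient of variation 37.2%).

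**Figure D2:**
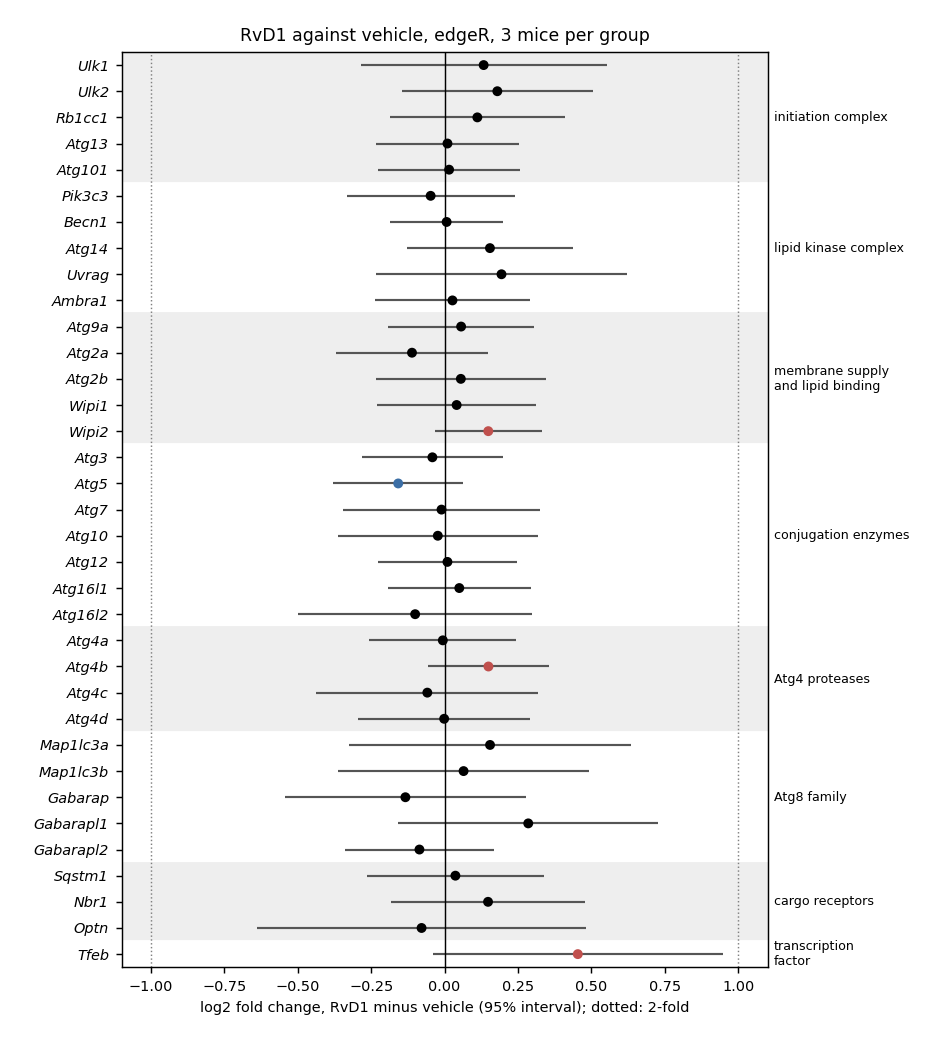
Log2 fold change of each autophagy gene, RvD1 minus vehicle, with its 95% interval from edgeR (n = 3 per group), grouped by role, and dotted lines at 2-fold. Red and blue points mark the 4 members whose groups do not overlap in CPM, higher for Wipi2, Atg4b, and Tfeb and lower for Atg5, and every interval includes 0.

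In CPM, the RvD1 and vehicle libraries did not overlap for 4 of the 35 members (11.4%), and for 9.62% of all genes tested. The 3 higher with RvD1 stood against 4.8% of all genes and the 1 lower against 4.83%. Over both directions the share of members lay close to that of all genes. On the TPM scale 5 members (14.3%) did not overlap, against 11.4% of all genes. All 5 (Rb1cc1, Atg14, Wipi2, Atg4b, and Tfeb) were higher with RvD1, as were most such genes on that scale (8.89% higher and 2.52% lower).

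Tfeb, the transcription factor that activates lysosomal and autophagy genes, had the largest estimate. It was measured at 5.39, 5.39, and 5.99 CPM with RvD1 and at 3.47, 3.97, and 4.78 CPM with vehicle. Every RvD1 library was above every vehicle library, at a mean of 5.59 ± 0.349 against 4.07 ± 0.661 CPM (SD, n = 3). The log2 fold change was 0.45 (SE 0.22, unadjusted p = 0.067 and adjusted p = 0.971 in edgeR). Tfeb was also the member with the fewest reads, and its level per length was 5.09 ± 0.0985 TPM with RvD1 and 3.77 ± 0.573 TPM with vehicle (SD, n = 3). The gene lies at chr17:47737030-47792419 (+) on GRCm38.

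Wipi2, which binds phosphatidylinositol 3-phosphate on the forming membrane and recruits the conjugation machinery, was measured at 122.1, 121.8, and 120.7 CPM with RvD1. With vehicle it was measured at 112.2, 108.4, and 108.3 CPM. The groups were apart and each was narrow, and the log2 fold change was 0.15 (SE 0.080, unadjusted p = 0.0966 and adjusted p = 0.971 in edgeR).

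Atg4b, the protease with the broadest activity toward the Atg8 family, was at 55.9, 56.6, and 58.0 CPM with RvD1 and at 49.8, 52.7, and 51.3 CPM with vehicle. Here too the lowest RvD1 library exceeded the highest vehicle library. The log2 fold change was 0.15 (SE 0.091, unadjusted p = 0.134 and adjusted p = 0.971 in edgeR).

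Atg5, which is joined to Atg12 and forms part of the enzyme that attaches Atg8 proteins to lipid, was the 1 member lower with RvD1 without overlap. Its values were 51.5, 52.6, and 58.1 CPM with RvD1 and 58.7, 59.2, and 63.0 CPM with vehicle. RvD1 replicate 3 nearly reached vehicle replicate 1, and on the TPM scale the groups overlapped, at 38.4, 41.4, and 42.6 against 43.6, 42.6, and 42.5. The log2 fold change was -0.16 (SE 0.097, unadjusted p = 0.14 and adjusted p = 0.971 in edgeR).

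The 5 members of the initiation complex all had positive estimates, from 0.0098 (Atg13) to 0.18 (Ulk2), and none passed the test. Ulk1 and Ulk2 are its kinases, Rb1cc1 its scaffold, and Atg13 and Atg101 its regulatory subunits. Atg101 had the highest level of the complex, with 63.7, 58.4, and 61.7 TPM with RvD1 and 59.6, 61.4, and 50.7 TPM with vehicle. Those values overlapped, and its log2 fold change was 0.015 (SE 0.11, unadjusted p = 0.888 in edgeR). Without RvD1 replicate 1 the median estimate of the complex was 0.0038, with Ulk1 and Rb1cc1 at -0.043 and -0.045 and Ulk2 at 0.012.

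In the lipid kinase complex, 4 estimates were positive and 1 negative, from -0.048 (Pik3c3, the catalytic subunit, positive on the TPM scale) to 0.19 (Uvrag). Becn1, the subunit on which the complex assembles, had the highest level and was the steadiest member, with 102.5, 109.7, and 107.3 CPM with RvD1 and 102.1, 110.0, and 105.9 CPM with vehicle. The groups coincided, and the 95% interval of the log2 fold change ran from -0.18 to 0.20. Atg14 and Uvrag, which occupy the same position in alternative forms of the complex, had estimates of 0.15 and 0.19. Without RvD1 replicate 1 that of Atg14 was 0.13 and that of Uvrag -0.039. Ambra1, a regulator that binds Becn1, had an estimate of 0.027.

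Among the membrane proteins, the lipid scramblase Atg9a and the lipid-transfer protein Atg2b had estimates of 0.056 and 0.055, and the Wipi2 paralog Wipi1 one of 0.041. Atg2a, the other lipid-transfer protein, was at 49.5, 49.0, and 49.2 CPM with RvD1 and at 57.2, 56.7, and 45.7 CPM with vehicle. Vehicle replicate 3 was the lowest of the 6 libraries and the other two vehicle libraries the highest. The log2 fold change was -0.11 (SE 0.11, unadjusted p = 0.355 in edgeR).

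Of the 7 conjugation enzymes, 2 had positive and 5 negative estimates, with a median of -0.023, and of the negative ones Atg3 and Atg10 were positive on the TPM scale. Atg3, which transfers Atg8 proteins to lipid, had the highest level of them, with 70.6, 85.9, and 87.9 CPM with RvD1 and 82.7, 84.4, and 84.4 CPM with vehicle. The vehicle libraries lay inside the range of the RvD1 libraries, and the log2 fold change was -0.042 (SE 0.11, unadjusted p = 0.705 in edgeR). Atg7, the enzyme that activates both Atg8 proteins and Atg12, had an estimate of -0.011, and Atg10, which transfers Atg12 to Atg5, one of -0.023. Estimates were 0.0097 for Atg12, 0.050 for Atg16l1, which directs the conjugation to the membrane, and -0.10 for its paralog Atg16l2. Of the other Atg4 proteases, Atg4a, Atg4c, and Atg4d had estimates of -0.0061, -0.059, and -0.0015, all positive on the TPM scale.

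The Atg8 family had the widest spread between libraries, with a median coefficient of variation of 20.5%, and its levels differed 10-fold between Gabarap, the highest by mean TPM, and Gabarapl1, the lowest. Map1lc3b, the protein used as the standard marker of autophagosomes, was at 312.1, 197.5, and 176.5 TPM with RvD1 and at 220.8, 207.7, and 192.1 TPM with vehicle. Gabarap was at 321.0, 203.9, and 192.5 TPM with RvD1 and at 270.1, 257.3, and 225.1 TPM with vehicle. In both, RvD1 replicate 1 was the highest library, and RvD1 replicate 3 was the lowest.

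Gabarapl2 was at 162.5, 140.1, and 127.0 TPM with RvD1 and at 138.6, 141.8, and 153.4 TPM with vehicle. Map1lc3a was at 91.2, 54.6, and 52.7 TPM with RvD1 and at 60.7, 61.0, and 45.7 TPM with vehicle. Gabarapl1 was at 35.8, 25, and 21.7 TPM with RvD1 and at 25.6, 20.8, and 17.6 TPM with vehicle. RvD1 replicate 1 again was the highest for all of these, and in each gene the groups overlapped. In every library the order of levels was Gabarap, Map1lc3b, Gabarapl2, Map1lc3a, and Gabarapl1, from highest to lowest. Across libraries, the ranges of Gabarap and Map1lc3b overlapped with RvD1 and were apart with vehicle.

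In CPM, the log2 fold changes of the family were 0.15 for Map1lc3a (SE 0.21), 0.065 for Map1lc3b (SE 0.19), -0.13 for Gabarap (SE 0.18), 0.28 for Gabarapl1 (SE 0.19), and -0.086 for Gabarapl2 (SE 0.11). Their unadjusted p values in edgeR were 0.483, 0.74, 0.479, 0.178, and 0.466. These estimates depended on which RvD1 library was left out. Without RvD1 replicate 1, 4 of the 5 were negative, with a median of -0.16. Gabarap then stood at -0.39 (unadjusted p = 0.0024, adjusted p = 0.967 in edgeR), Map1lc3b at -0.20, Gabarapl2 at -0.16, Map1lc3a at -0.12, and Gabarapl1 at 0.077. Without RvD1 replicate 3 all 5 were positive, at 0.29 for Map1lc3a, 0.21 for Map1lc3b, 0.010 for Gabarap, 0.43 for Gabarapl1, and 0.0070 for Gabarapl2.

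The genes were also expressed as shares of the summed TPM of the family in each library, a measure taken up after the values were seen and given only as a description. Gabarap made up 34.8, 32.8, and 33.7% with RvD1 and 37.7, 37.4, and 35.5% with vehicle. Gabarapl1 made up 3.88, 4.03, and 3.81% with RvD1 and 3.58, 3.01, and 2.78% with vehicle. Map1lc3b made up 33.8, 31.8, and 30.9% with RvD1 and 30.8, 30.2, and 30.3% with vehicle, so that its groups were nearly touching, and the shares of Map1lc3a and Gabarapl2 overlapped. Shares of 1 total are tied to each other, so that a lower share of Gabarap raises the others, and no test was made. For Gabarapl1, RvD1 replicate 1 lay between the other RvD1 libraries as a share and above them as a level.

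**Figure D3:**
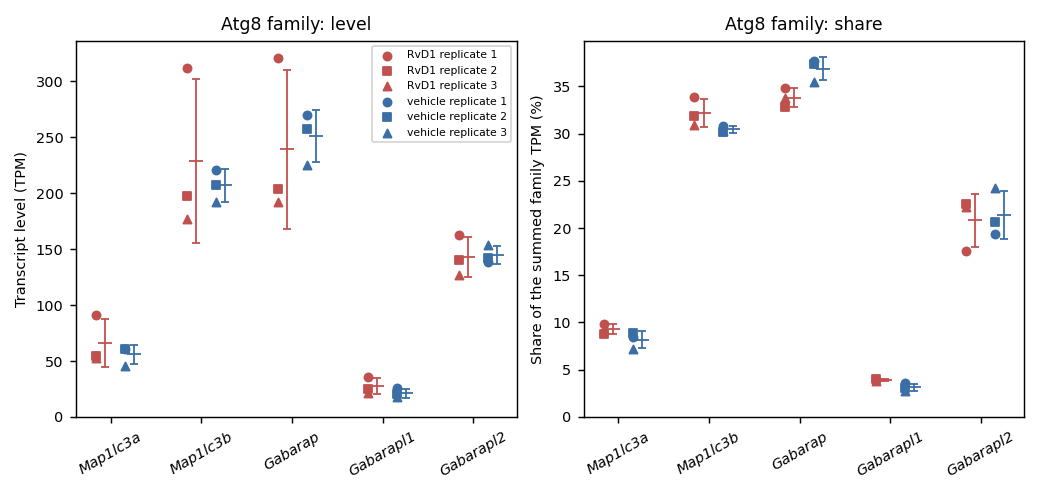
Level of the 5 Atg8 family genes (left, TPM) and their share of the family's summed TPM (right, percent) in each library, with RvD1 in red, vehicle in blue, 1 marker shape for each replicate number, and the mean ± SD beside the points (n = 3). RvD1 replicate 1 is the highest library for each gene on the left, while on the right Gabarap lies lower and Gabarapl1 higher in the RvD1 libraries than in the vehicle libraries.

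Sqstm1 was at 1279.9, 1053, and 934 TPM with RvD1 and at 1062, 1074, and 883 TPM with vehicle. The means of 1089 ± 176 and 1006 ± 107 TPM (SD, n = 3) lay within the spread of either group, and the log2 fold change in CPM was 0.037 (SE 0.13, unadjusted p = 0.787 in edgeR). Nbr1, a receptor related to Sqstm1, had an estimate of 0.15 (-0.021 without RvD1 replicate 1), and Optn, a receptor for damaged mitochondria and bacteria, one of -0.078. Optn was lowest in RvD1 replicate 1, at 4.71 CPM against 6.78 to 8.65 CPM in the other libraries.

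The libraries at the ends of the ranges recurred across members. RvD1 replicate 1 was the highest library for 16 of the 35 members, against 30.6% of all genes tested, and vehicle replicate 3 was the lowest for 16, against 19.2%. RvD1 replicate 1 exceeded the highest other library by more than 1.1 times for 9 members, namely Map1lc3a, Gabarapl1, Ulk2, Map1lc3b, Uvrag, Rb1cc1, Nbr1, Ulk1, and Gabarap, with ratios of 1.34, 1.33, 1.32, 1.31, 1.30, 1.24, 1.23, 1.22, and 1.16. The same library had the highest level of 5 of the 10 MuSC markers, among them Pax7 (28.2 CPM, against 14.2 to 22.8 in the others). It had the lowest Myod1 (251.5 CPM, against 359.8 to 502.4), Des (830.3 CPM), and Itga7 (830.4 CPM). Myog (813.6 CPM) and Cdh15 (741.3 CPM) lay inside the range of the other libraries. Of the 5 fibro-adipogenic markers, 3 were highest in RvD1 replicate 1, among them Dcn (446.3 CPM, against 191.5 to 285.4). The other markers of that list did not follow, as Pdgfra was higher in RvD1 replicate 3 (13.6 CPM) than in replicate 1 (13.3 CPM), and Ly6a in RvD1 replicate 1 (11.6 CPM) was below the vehicle libraries (12.8 to 18.5 CPM). The part of these differences in the levels of the members was not tested. Without RvD1 replicate 1, the median log2 fold change of the members was -0.021, with 17 higher and 18 lower.

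**Figure D4:**
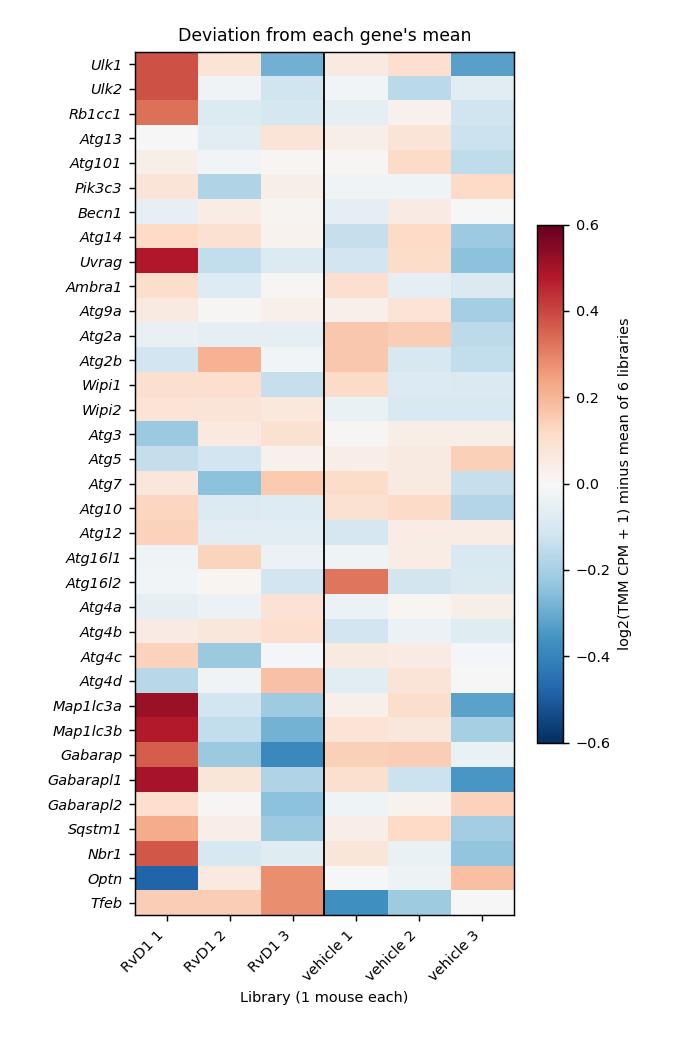
Deviation of each autophagy gene from its own mean, as log2(CPM + 1) minus the mean of the 6 libraries, with genes in rows and libraries in columns and a line between the RvD1 and vehicle libraries. The darkest red cells are those of Map1lc3a, Map1lc3b, Gabarapl1, and Uvrag in RvD1 replicate 1, where 16 of the 35 members are at their highest, and vehicle replicate 3 holds the lowest value of 16 members.

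RSEM weights the length of a gene by the isoforms it assigns reads to, and this effective length can be recovered from the deposited counts and FPKM values. It was compared for 34 members, leaving out Tfeb with a mean of under 100 counts. For 2 of the 34 members the groups did not overlap and differed by more than 1%. This was a smaller share than the 8.67% of 10295 genes with that pattern. Ulk1 had effective lengths of 4228, 4350, and 4194 bases with RvD1 and of 3863, 3713, and 4102 bases with vehicle, 9.37% longer with RvD1. Rb1cc1, in the same complex, had 2774, 2861, and 2931 bases with RvD1 and 3021, 3155, and 3126 bases with vehicle, a difference of -7.92% between means of 2855 and 3101 bases. The remaining subunits Ulk2, Atg13, and Atg101 overlapped between groups. Outside the complex, Atg7 (15.9%), Atg2a (9.22%), and Uvrag (-8.01%) had larger differences between means than Rb1cc1, and their groups overlapped. A longer effective length stands for reads assigned to longer isoforms, which were not resolved here.

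**Figure D5:**
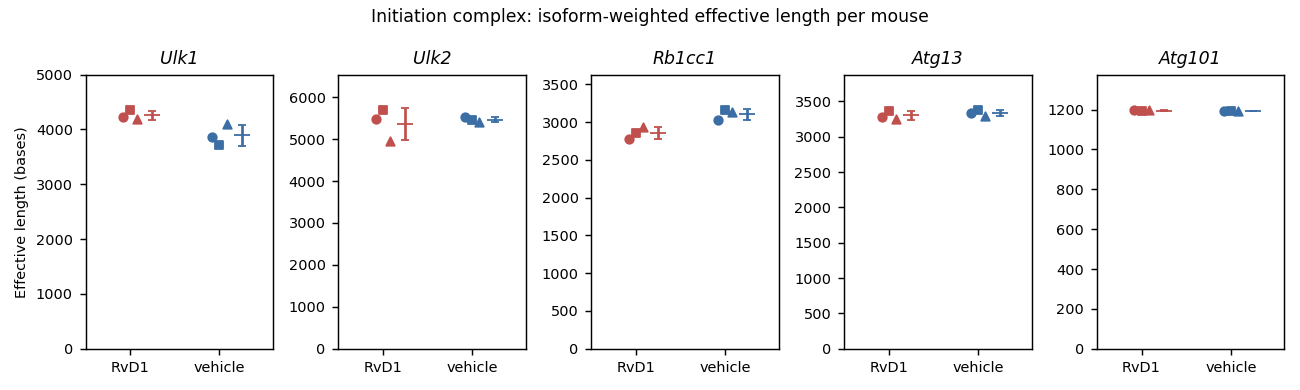
Effective length (bases) recovered for the 5 genes of the initiation complex in each library, with RvD1 in red, vehicle in blue, 1 marker shape for each replicate number, and the mean ± SD beside the points (n = 3). The groups are apart for Ulk1 (longer with RvD1) and Rb1cc1 (shorter with RvD1), and they overlap for Ulk2, Atg13, and Atg101.

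All 35 members are annotated as protein coding in GENCODE, and they lie on 19 chromosomes, with 6 on chromosome 11. Reads of 76 bases cannot separate genes whose transcripts share a stretch of that length, and the cDNA kit does not mark strand. Of the 35 members, 21 shared no such stretch with another gene, among them Tfeb, Atg4b, Atg5, and Gabarap. In 7 members over 10% of positions were shared. The highest shares were 41.0% for Atg4a, with a processed copy (Atg4a-ps, mean 7.56 counts), 33.5% for Becn1, with the overlapping Cntd1 (mean 8.68 counts), and 28.7% for Atg9a, with the overlapping Gm29253 (mean 121 counts) and others. Map1lc3b shared 4.03% with several genes, led by the copy Gm6055 (mean 130 counts). Reads from such positions cannot be placed with certainty. The shares are of positions and do not give the size of the error in a count, which was not measured.

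Promoter windows of 250 bases before to 50 after the start were at hand in RefSeq (GRCm38.p6) for 29 members and were searched on both strands. The E-box CACGTG, the core of the sites bound by Tfeb, was found in 4 of 29 (13.8%, in Atg14, Atg3, Atg5, and Atg7) and in 8.91% of 17491 genes. The longer TCACGTGA, which contains it, was found in 1 (Atg3) and in 1.41% of genes. The Atg3 stretch is shown with this match in capitals, at chr16:45158747-45158774 (+).
Atg3: gagagtcgagTCACGTGAggccttaggt
The genes with an E-box had log2 fold changes of 0.15 (Atg14), -0.042 (Atg3), -0.16 (Atg5), and -0.011 (Atg7), on either side of 0. GTAAACA, a motif of FoxO factors, was found in 0 of 29 and in 3.45% of genes, which says only that these letters were not in these windows.

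A further 85 genes of autophagy and the lysosome that were not members were read from the same fit, and 84 were tested. The one left out was Tfec, a relative of Tfeb with 0 TPM in 5 libraries. None passed an adjusted p of 0.05, and 1 had an unadjusted p under 0.05 (1.19%, against 3.47% of all genes tested). Estimates were positive for 49 and negative for 35, with a median log2 fold change of 0.030. In CPM, the groups did not overlap for 7 (8.33%), against 9.62% of all genes tested. The RvD1 libraries lay above the vehicle libraries for 2 genes and below them for 5. Among all genes tested the 2 directions had shares of 4.8% and 4.83%.

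By list, 11 of 16 other core autophagy genes, 11 of 16 other cargo receptors, 11 of 13 genes of fusion with the lysosome, 6 of 11 relatives and regulators of Tfeb, and 10 of 28 lysosome genes had positive estimates. The medians were 0.053, 0.067, 0.030, 0.060, and -0.020. Of 84 genes, 82 had 95% intervals within 1 in either direction.

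Stx17, the SNARE protein of the autophagosome that mediates fusion with the lysosome, was at 35.6, 28.7, and 37.0 CPM with RvD1 and at 23.6, 26.8, and 29.2 CPM with vehicle. RvD1 replicate 2 fell below vehicle replicate 3, and the log2 fold change was 0.35 (SE 0.14, unadjusted p = 0.0346 and adjusted p = 0.971 in edgeR). Bnip3, a receptor for mitochondria, was at 61.0, 72.9, and 85.8 CPM with RvD1 and at 50.6, 73.6, and 48.1 CPM with vehicle. Vehicle replicate 2 lay among the RvD1 libraries, and the log2 fold change was 0.35 (SE 0.18, unadjusted p = 0.0906 and adjusted p = 0.971 in edgeR).

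Atp6v0e, a subunit of the proton pump that acidifies the lysosome, was at 105.5, 110.6, and 112.3 CPM with RvD1 and at 127.6, 119.6, and 125.8 CPM with vehicle. All RvD1 libraries were below all vehicle libraries in CPM, with a log2 fold change of -0.18 (SE 0.083, unadjusted p = 0.0564 and adjusted p = 0.971 in edgeR). On the TPM scale the groups overlapped, with RvD1 replicate 3 at 250.98 TPM and vehicle replicate 2 at 246.25 TPM. Ei24, a membrane protein of the endoplasmic reticulum needed for autophagy, was at 68.0, 75.4, and 73.7 CPM with RvD1 and at 80.0, 85.2, and 78.5 CPM with vehicle. Its groups were apart in CPM as well, with a log2 fold change of -0.17 (SE 0.092, unadjusted p = 0.105 and adjusted p = 0.971 in edgeR). They overlapped on the TPM scale, with RvD1 replicates 2 and 3 at 57.15 and 57.5 TPM and vehicle replicate 3 at 56.67 TPM. Tfe3 and Mitf, the other relatives of Tfeb, had log2 fold changes of 0.060 (SE 0.11) and 0.21 (SE 0.22).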

How the data were processed

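RNA of MuSCs from 3 RvD1-treated and 3 vehicle-treated mice was measured by RNA-Seq with 76-bp single-ended reads. Per the labels, the authors aligned reads to mm10 with STAR 2.5.0a, and RSEM gave a value per gene. In the deposited files, expected counts are estimates without scaling for depth, and TPM and FPKM are corrected for transcript length and library size.

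Groups came from the sample labels. Expected counts were rounded and tested with edgeR 4.0.16 in R 4.3.3 (TMM, filterByExpr, quasi-likelihood test, Benjamini-Hochberg adjustment over all 14494 genes tested, threshold 0.05). SEs and 95% intervals follow from each estimate and its F statistic. The study's limma-voom procedure with surrogate variables removed was run as an alternative, beside DESeq2 1.42.0, other scalings and filters, limma 3.58.1 on log2(TPM + pseudocount), a replicate block, and each library left out. TPM depends on the isoform lengths and is not scaled with TMM factors. On that scale the median log2 fold change of all genes was 0.077 rather than 0.014, so differences are given in CPM and levels in TPM. The source of this shift was not tested. Floors of 3 counts lay between 0.107 and 0.186 CPM and cover counting error only. Tests were checked on simulated data in which the planted differences were far larger than the estimates of the members. That check does not cover differences of the size reported here. An exact permutation test of 3 against 3 cannot go below p = 0.1.

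Effective length was computed as counts divided by FPKM and the library total, where the mean count reached 100 and FPKM reached 1, and was added after the data were seen. The members and gene lists were chosen with earlier results of these data known. Values in every library are given for the 3 members with the smallest p in each direction, the highest member of each role, the Atg8 family, Sqstm1, and the 2 other genes with the smallest p in each direction.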

Additional observations from a re-analysis of the deposited data

How the results depend on the processing

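The count of members with an adjusted p under 0.05 was 0 under every alternative run, and so was that of the other autophagy and lysosome genes. Over all genes tested it was 0, except 12 in edgeR with no count filter and 1 without RvD1 replicate 3. The count of members with an unadjusted p under 0.05 was 4 with limma-voom and 1 surrogate variable removed. These were Wipi2, Atg4b, Gabarap, and Tfeb, and 11.2% of all genes had such a p. The surrogate variable was removed before the fit, which did not allow for the removal, so these p values can be too small. With each library left out, the count of members ranged from 0 to 1. Those calls came from Gabarap without RvD1 replicate 1, Gabarapl1 without RvD1 replicate 3, and Tfeb without vehicle replicate 3. Among the other genes it was 2 with no count filter, 8 with the surrogate variable removed, 2 on log2(TPM + 1) with or without a TPM filter, 2 on log2(TPM + 0.1), and 0 to 4 with each library left out. Replicate numbers recur in both groups. Deviations of same-numbered libraries correlated at 0.31, -0.00071, and 0.13 over all genes tested, and at 0.34, -0.30, and 0.58 over the members. These values cannot decide whether the numbers mark pairs, and the main test did not treat the numbers as pairs. With a replicate block, 1 member (Gabarapl1) and 3 other genes had an unadjusted p under 0.05, where 6.18% of all genes did. The number of members whose groups do not overlap was 4 to 6 with each library left out, where 15.2 to 23.3% of all genes did not overlap, and 5 on the TPM scale.

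The median log2 fold change of the members was 0.10 on log2(TPM + 1), with or without the filter, and 0.10 on log2(TPM + 0.1), where the median of all genes was 0.077 and 0.087. It ranged from -0.021 (without RvD1 replicate 1) to 0.062 (without vehicle replicate 1) with each library left out. On all libraries, 22 of 429 values changed sign. With the surrogate variable removed these were Atg3 0.016, Atg4a 0.026, Atg4d 0.042, and Map1lc3b -0.028. On log2(TPM + 1), with or without the filter, they were Pik3c3 0.037, Atg3 0.034, Atg10 0.055, Atg4a 0.066, Atg4c 0.020, and Atg4d 0.034, and with a pseudocount of 0.1 they were 0.039, 0.034, 0.058, 0.069, 0.021, and 0.035 in the same order. For 27 members the sign depended on which library was left out, with these lowest and highest log2 fold changes: Ulk1 -0.043 to 0.29, Rb1cc1 -0.045 to 0.19, Atg13 -0.052 to 0.052, Atg101 -0.053 to 0.079, Pik3c3 -0.10 to 0.030, Becn1 -0.019 to 0.034, Uvrag -0.039 to 0.31, Ambra1 -0.023 to 0.088, Atg9a -0.027 to 0.11, Atg2b -0.046 to 0.16, Wipi1 -0.0024 to 0.12, Atg3 -0.10 to 0.052, Atg7 -0.097 to 0.11, Atg10 -0.12 to 0.031, Atg12 -0.060 to 0.042, Atg16l1 -0.011 to 0.085, Atg16l2 -0.18 to 0.065, Atg4a -0.055 to 0.023, Atg4c -0.16 to 0.042, Atg4d -0.099 to 0.079, Map1lc3a -0.12 to 0.29, Map1lc3b -0.20 to 0.21, Gabarap -0.39 to 0.010, Gabarapl2 -0.16 to 0.0070, Sqstm1 -0.072 to 0.14, Nbr1 -0.021 to 0.23, Optn -0.27 to 0.13. The other 8 members (Ulk2, Atg14, Atg2a, Wipi2, Atg5, Atg4b, Gabarapl1, and Tfeb) kept their sign, although without RvD1 replicate 1 Ulk2 was at 0.012 and Gabarapl1 at 0.077. The cause was not tested. With 3 mice per group, differences inside the printed intervals could not be told from the spread between mice, and p values of tests that leave 2 mice in a group rest on the spread pooled over both groups.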
